A study of Homo sapiens with 19 samples.

Results

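RNA of the isolated nucleus was compared with RNA of the whole cell in K562, an established human erythroleukaemia cell line grown without treatment. The members are the 8 libraries labelled as these fractions, 4 of nucleus and 4 of whole cell, out of 19 in the series, with all 58051 human genes of the deposited exon and gene-body count tables. The other 11 libraries come from the cytoplasm and from a wash of the nuclei. Every library used here is total RNA depleted of rRNA and carries synthetic yeast transcripts as spike-ins. The cells are 1 line, the labels do not say whether replicates are separate cultures, and p-values therefore cover no more than the variation among these libraries, some of which may be technical. The whole cell contains the nucleus, so the comparison is of a compartment with the whole that holds it. In bulk RNA, fewer cells of a kind and less RNA per cell cannot be told apart.

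In a human cell, pre-mRNA is made and spliced in the nucleus, and most finished mRNA is exported to the cytoplasm, where it is translated and decayed. Introns are removed and degraded in the nucleus, while small nuclear and nucleolar RNAs, and a set of long noncoding RNAs such as those of speckles and paraspeckles, act there. Some spliced or partly spliced mRNAs, among them those of SR splicing factors and CLK kinases, are known to be held in the nucleus, whereas mitochondrial transcripts are made and translated inside mitochondria.

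Exon counts summed to between 1373755 and 2643131 in nucleus libraries, against 2616547 to 6115517 in whole-cell libraries. Intronic counts, taken as gene-body counts minus exon counts with negative values set to 0, summed to between 2963966 and 5965441 in nucleus libraries, against 1872173 to 5405179 in whole-cell libraries. Nucleus replicates 3 and 4 differed from each other by a chi-square of 1.20 per gene, whereas the other pairs within a fraction gave 3.32 to 7.67, and with the 2 summed to 1 library the calls by exon counts numbered 8446. All 12 K562 markers were detected, with summed exon levels of 906 to 1000 CPM (counts scaled to a library of 1000000) in nucleus libraries, against 2710 to 3390 CPM in whole-cell libraries. Of 17 markers of other cell types, 4 (APOA1, CDH5, KRT5 and KRT14) had no count in any library and 12 averaged below 1 CPM. Their sum was 58.1 to 76.7 CPM in nucleus libraries, against 83.5 to 92.7 CPM in whole-cell libraries, and came mostly from EPCAM. The part of such markers in the results below was not tested.

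The nucleus held more intronic RNA for its exonic RNA than the whole cell did. Outside mitochondrial genes, intronic counts made up 74.1, 73.7, 70.3 and 70.03% of gene-body counts in nucleus replicates 1 to 4, against 47.5, 53.0, 52.4 and 45.6% in whole-cell replicates 1 to 4. Every nucleus library lay above every whole-cell library, with means of 72.0 ± 2.16% and 49.6 ± 3.66% (SD, n = 4 each; exact two-sided permutation test, p = 0.0286, 0.0321 after Benjamini-Hochberg adjustment over 9 shares). The smallest p that 4 against 4 libraries allows is 0.0286, and paired by replicate number these shares cannot go below 0.125. If nucleus replicates 3 and 4 were counted as 1 library, 3 against 4 libraries could not go below 0.0571. Per base of annotated sequence, the median gene had an intronic read density that was 41.4 ± 2.91% of its exonic density in nucleus libraries, against 16.6 ± 1.76% in whole-cell libraries (n = 4 each, exact permutation p = 0.0286).

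The exon counts also divided differently among kinds of RNA. Long noncoding RNAs took 13.0 ± 0.802% of exon counts in the nucleus, against 5.21 ± 0.292% in the whole cell. MALAT1, the abundant long noncoding RNA of nuclear speckles, alone took 7.84 ± 0.880% in the nucleus, against 2.26 ± 0.193% in the whole cell. Small nucleolar and Cajal body RNAs took 0.208 ± 0.0601% in the nucleus and 0.0580 ± 0.00893% in the whole cell. These libraries hold few reads of such short RNAs, and the snRNA share was 0.0826 ± 0.0113% in the nucleus, against 0.0295 ± 0.00192% in the whole cell. By gene-body counts the snRNA share differed by 0.00299 points and did not pass the test (exact permutation p = 0.314). By exon counts, each of these shares was higher in every nucleus library (SD, n = 4 each; exact permutation p = 0.0286, adjusted 0.0321).

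Mitochondrial RNA took a smaller share of the nucleus libraries, without being absent. The 2 mitochondrial rRNAs took 9.66, 4.92, 5.59 and 6.11% of exon counts in nucleus replicates 1 to 4, against 17.6, 17.8, 16.3 and 16.7% in whole-cell replicates 1 to 4. The 13 mitochondrial mRNAs took 2.17, 1.30, 1.50 and 1.54% in the nucleus, against 3.35, 3.27, 3.43 and 3.97% in the whole cell. Nucleus replicate 1 held the highest mitochondrial share of its fraction, still below every whole-cell library for both kinds (exact permutation p = 0.0286, adjusted 0.0321). The protein-coding share, 75.3 ± 2.41% in the nucleus and 72.1 ± 0.360% in the whole cell, did not pass the test (exact permutation p = 0.143). Its difference was 5.42 points by gene-body counts and -8.82 points with mitochondrial and rRNA genes left out of the totals (exact permutation p = 0.0286 each).

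**Figure D1:**
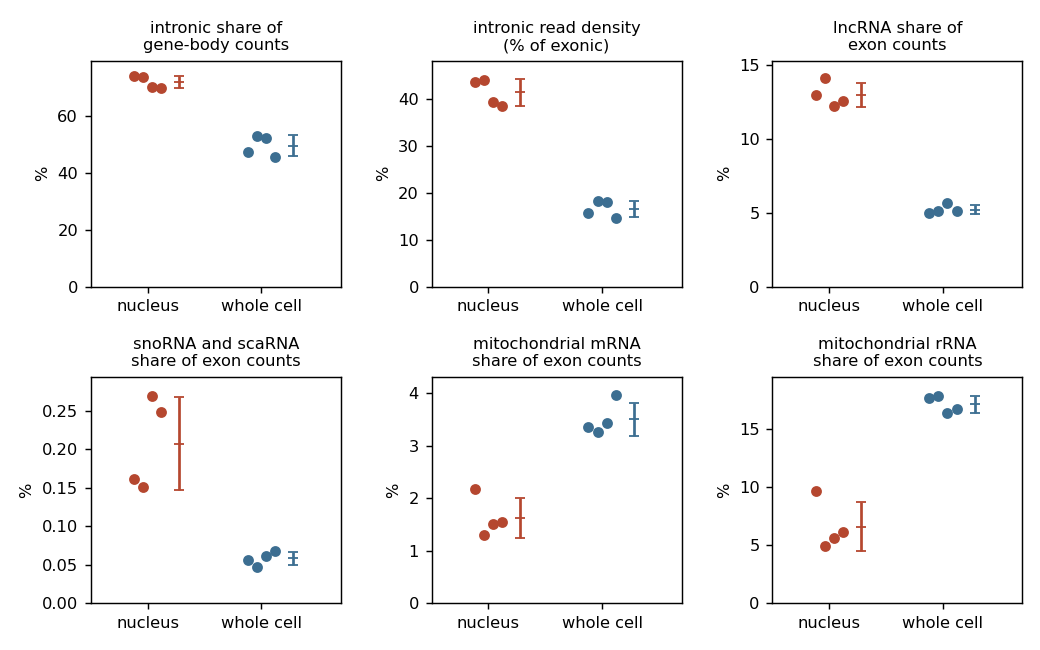
Each point is 1 library, 4 of the nucleus on the left and 4 of the whole cell on the right of each panel, and the bars give the mean and SD. The vertical axes are percentages and start at 0. Intronic and noncoding shares are higher in every nucleus library and mitochondrial shares lower, and nucleus replicate 1 is the highest nucleus point in both mitochondrial panels.

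Gene by gene, exon counts were tested in 15940 genes with edgeR's quasi-likelihood test and Benjamini-Hochberg adjustment at 0.05. Of these, 8755 were called, 54.9% of those tested, 4133 higher in the nucleus (25.9%) and 4622 lower (29%). At least 2-fold changes numbered 2206 higher and 2462 lower. The nucleus and whole-cell libraries did not overlap for 48.5% of the tested genes. Calls within the libraries whose names lead with 1 were 3219 higher and 4049 lower, and within those that lead with 2 they were 2997 and 4350.

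These directions are relative to the median gene, because the trimmed mean of M values (TMM) scaling sets the median log2 fold change near 0, here 0.04. With DESeq2's median-of-ratios factors the median was 0.20 and 5290 genes were higher against 3822 lower, and DESeq2 itself called 5040 higher and 3762 lower. With no composition factor it was 0.41, with 6879 higher and 2895 lower. With library sizes set by the spike-ins it was -1.83, and 13771 genes were lower and none higher, also at an unadjusted edgeR p under 0.05 (0.972 to 1.04% of the exon table were spike-in counts in nucleus libraries, against 0.192 to 0.232% in whole-cell libraries). The labels do not say how spike-in amounts were matched to cells, so values below are on the TMM scale, and each gene or group called higher in the nucleus was higher than the median gene only.

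Intronic counts moved far less between genes. On their own TMM scale, 12483 genes were tested and 876 were called, 7.02% of those tested, with 41 higher in the nucleus (0.328%) and 835 lower (6.69%), and the libraries did not overlap for 13.8%. A fit with the replicate number as a block called 178 higher and 1119 lower. These calls depend on the scaling. With the library sizes and factors of the exon counts 11112 were higher and 227 lower, and with spike-in library sizes 30 and 4362. Among the 10461 genes tested in both kinds of count, the interquartile range of exon log2 fold changes ran from -0.62 to 0.48, a width of 1.10. The interquartile range of the intronic values of the same genes ran from -0.14 to 0.16, a width of 0.30. When intronic counts were divided by the library sizes and factors of the exon counts, so that both share a scale, the median intronic log2 fold change was 1.26 and the interquartile range ran from 1.07 to 1.37. Across these 10461 genes, which are not independent replicates, exon and intronic fold changes had a Spearman correlation of -0.003.

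**Figure D2:**
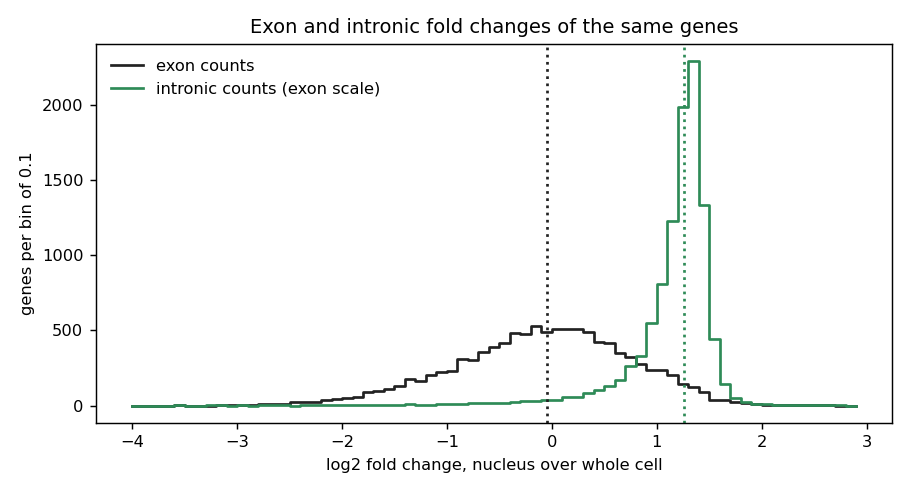
Numbers of genes in bins of 0.1 of the log2 fold change of the nucleus over the whole cell, for exon counts (black) and intronic counts (green) of the same 10461 genes, both divided by the library sizes and factors of the exon counts; dotted lines mark the medians, -0.05 and 1.26. The intronic values form a narrow peak and the exon values a broad one, most of it to the left. With library sizes set by the spike-ins the medians over all tested genes were -1.83 for exon and -0.63 for intronic counts.

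The ratio of intronic to exon counts within a library does not depend on scaling between libraries, and it was tested in the 10461 genes. It was called in 8163 genes, 78% of those tested, with 8038 higher in the nucleus (76.8%) and 125 lower (1.19%), and the libraries did not overlap for 72.2%. The median log2 change of the ratio was 1.22. By the same test, 7523 genes were higher and 90 lower within the libraries that lead with 1, and 7288 and 92 within those that lead with 2. A gene's ratio could be called without a call by intronic counts.

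Many annotated genes overlap a neighbour, 34346 of the 58051, and the strand setting of the counting is not given in the sources used here, so reads of overlapping genes cannot be told apart. By exon counts, 3381 of 11728 overlapping genes were higher in the nucleus (28.8%), against 713 of 4127 genes that overlap no other (17.3%). The lower intronic calls lay mostly in overlapping genes, 797 of 9453 (8.43%), against 28 of 2968 (0.943%) of the others. The ratio rose in 2310 of 2685 genes that overlap no other (86.0%) and fell in 3 of them. Several overlapping genes named below as higher had 0 intronic counts in all 8 libraries although introns are annotated, among them RPL36A, EIF4A1, NDUFV2, PSMD9, ZNF506 and ZNF660. Their gene-body counts did not exceed their exon counts. How reads of these genes were assigned was not tested, so their exon changes may not measure the mRNA alone. Overlaps of genes named as lower, such as GAPDH, ACTB and RPL35, are not always stated below.

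Exon counts of 1308 tested genes (8.21%) were raised in the nucleus by at least the median intronic value of 1.26, and 84.7% of these overlap another gene, against 73.6% of all tested. Of protein-coding genes, 328 of 11297 (2.90%) reached that level. It was reached by 453 of 2556 long noncoding genes (17.7%), 35 of 57 snRNA genes (61.4%), 58 of 87 snoRNA and scaRNA genes (66.7%) and 309 of 1479 pseudogenes (20.9%). Falls at least as large were found in 1836 of all tested genes (11.5%). They came to 1332 protein-coding genes (11.8%), 126 long noncoding genes (4.93%), 319 pseudogenes (21.6%), 1 snRNA gene (1.75%) and 0 snoRNA and scaRNA genes. These shares are descriptions, with no test between classes.

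Among long noncoding RNAs written as nuclear, 12 of 16 tested were higher in the nucleus and none lower, with a median log2 fold change of 0.70 against 0.04 over all tested genes (-1.16 with spike-in library sizes). The list median was close to that of all 2556 tested long noncoding genes, 0.66. Of these 40.1% were higher and 9.82% lower, beside 25.9% and 29% over all tested genes. MALAT1 (chr11:65497688-65506516, plus strand, GRCh38) had 66161, 70127, 50042 and 52486 exon CPM in nucleus replicates 1 to 4, against 20984, 22206, 24402 and 20637 exon CPM in whole-cell replicates 1 to 4. The groups did not overlap, and its log2 fold change was 1.44 ± 0.33 (SE; edgeR quasi-likelihood test, adjusted p = 0.00109), while by gene-body counts it was 0.78 and not called. NEAT1, the scaffold RNA of paraspeckles (chr11:65422774-65445540), had 1461, 1407, 1689 and 1649 exon CPM in the nucleus, against 584, 760, 840 and 755 in the whole cell. Its log2 fold change of 1.08 ± 0.12 had an edgeR adjusted p of 4.08e-07, and no library of 1 group reached the other. LINC-PINT, another RNA of the list, changed by 1.35 ± 0.23 but lies within another gene. Under spike-in library sizes, the values of MALAT1, NEAT1 and LINC-PINT turned to -0.45, -0.79 and -0.53. MALAT1 and NEAT1 also overlap other annotated genes.

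The noncoding hosts of snoRNAs were mixed, 12 of 24 higher and 4 lower (median 0.54, or -1.32 with spike-in library sizes). Over all tested genes 25.9% were higher and 29% lower, and the median of all tested long noncoding genes was 0.66. By gene-body counts, 1 of 25 was higher and 5 were lower (median 0.17), beside 3204 and 4303 of 17015 over all genes. GAS5, whose introns hold box C/D snoRNAs, had 811, 736, 967 and 924 exon CPM in nucleus libraries, against 413, 277, 246 and 305 in whole-cell libraries, a log2 fold change of 1.47 ± 0.19 (edgeR adjusted p = 1.74e-06). Its intronic counts did not pass the test (0.61 ± 0.28). SNHG12 rose by 1.16 (0.49 and not called by gene-body counts) and SNHG6 fell by 1.08, and each of these 3 hosts overlaps another gene. GAS5 and SNHG12 turned to -0.38 and -0.73 under spike-in library sizes.

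Among the small RNAs of splicing and RNA modification, 37 of 57 tested snRNA genes were higher and 1 lower, and 69 of 87 snoRNA and scaRNA genes were higher and none lower. The medians were 1.43 for both lists (-0.44 and -0.43 with spike-in library sizes), and of 1909 and 992 annotated genes only these few passed the filter on low counts. Over all tested genes, 25.9% were higher and 29% lower. Of the tested genes, 64.9% of snRNA genes and 96.6% of snoRNA and scaRNA genes overlap another gene. Reads of a host transcript therefore cannot be told apart from theirs, and the part of such reads was not tested. By gene-body counts, 2 of 25 snRNA genes were higher and 4 lower, and 1 of 10 snoRNA and scaRNA genes was higher and 1 lower. In a fit of the nucleus and whole-cell libraries alone, 17 of 21 snRNA genes were higher, and within the libraries that lead with 1, 39 of 76 snoRNA and scaRNA genes were. SNORA20, an H/ACA snoRNA nested in a host gene, had 19.3, 8.93, 49.2 and 39.4 exon CPM in nucleus libraries, against 5.27, 4.19, 7.05 and 5.91 in whole-cell libraries. The nucleus values spread widely yet all lay above the whole cell, with a log2 fold change of 2.37 ± 0.38 (edgeR adjusted p = 3.22e-05). SNORA68B, also an H/ACA snoRNA, changed by 2.38 ± 0.38 and RNU6-786P, a U6-type gene, by 1.75 ± 0.38, and both lie in other genes. RNU6-9, a U6 snRNA gene with near-identical copies, had 1.34, 4.81, 10.9 and 16.6 exon CPM in nucleus libraries, against 2.64, 0.399, 1.10 and 2.502 in whole-cell libraries, so its groups overlap although its log2 fold change of 2.43 ± 0.69 was called (edgeR adjusted p = 0.00561). It was lost within the libraries that lead with 1 (1.39) and by gene-body counts (1.79), and with spike-in library sizes SNORA20, SNORA68B and RNU6-9 stood at 0.54, 0.51 and 0.60 and were not called.

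**Figure D3:**
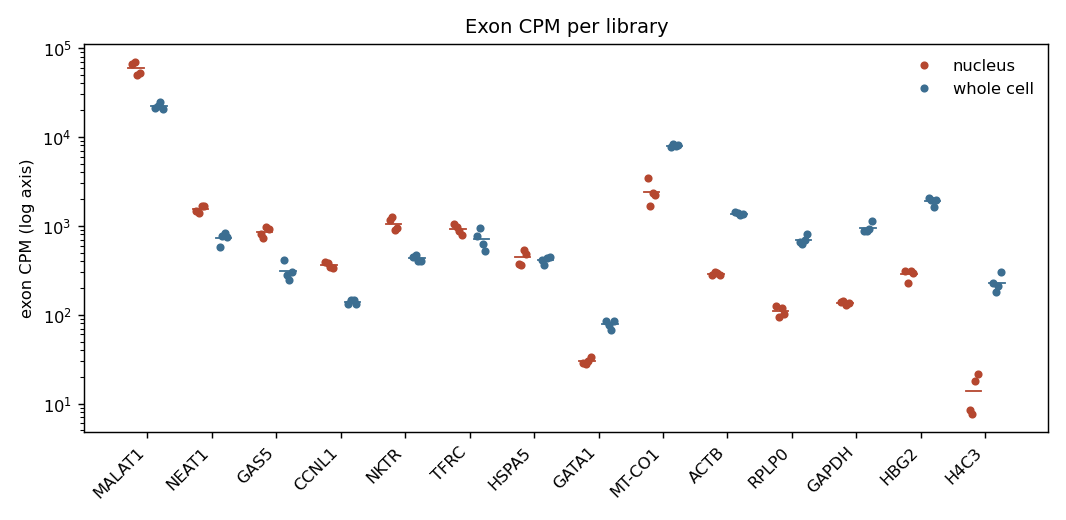
Exon levels of 14 named genes in CPM on a log axis, with 1 point per library and a line at the mean, nucleus in red to the left and whole cell in blue to the right. MALAT1, NEAT1, GAS5, CCNL1 and NKTR lie higher in every nucleus library on the TMM scale, a direction that turns under spike-in library sizes, while GATA1, MT-CO1, ACTB, RPLP0, GAPDH, HBG2 and H4C3 lie lower; TFRC and HSPA5 overlap.

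Messages of splicing proteins differed between families. Of 44 mRNAs of SR proteins, CLK kinases and speckle proteins, 30 were higher in the nucleus on the TMM scale and 4 lower, beside 25.9% and 29% over all tested genes. Their median was 0.66 (-1.21 with spike-in library sizes). By gene-body counts, which add introns to exons, 12 of 43 were higher and 9 lower, and the median was 0.13 against 0.09 over all genes. Of 23 mRNAs of hnRNP proteins, which also bind pre-mRNA, 1 was higher and 13 lower, with a median of -0.58. Their intronic medians on the intronic scale were 0.10 and 0.14, and by intronic counts none of 37 splicing-factor genes was higher and 1 was lower, beside 0.328% higher and 6.69% lower over all tested genes.

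CCNL1, the cyclin L1 that pairs with splicing-linked kinases (chr3:157146508-157160760, minus strand), had 396, 377, 339.9 and 333 exon CPM in nucleus libraries, against 131, 145, 148 and 133 in whole-cell libraries. The 2 groups were far apart, with a log2 fold change of 1.37 ± 0.13 (edgeR adjusted p = 2.37e-08). NKTR, a cyclophilin-type protein rich in arginine and serine, changed by 1.30 ± 0.23. The intron to exon ratio of CCNL1 was 0.406 ± 0.0359 in the nucleus and 0.382 ± 0.0661 in the whole cell, and that of NKTR 0.372 ± 0.0342 and 0.340 ± 0.0769 (SD, n = 4 each). Neither ratio was called (edgeR adjusted p = 0.614 and 0.430). Of the 37 genes of the list tested for the ratio 24 rose, with a list median of 0.49 against 1.22 over all genes, of which 76.8% rose. SRSF8, an SR protein encoded by a retrotransposed gene, fell by 0.95. CCNL1 and NKTR turned to -0.50 and -0.58 under spike-in library sizes, and both overlap other annotated genes.

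HNRNPH1, a regulator of splicing through G-rich sites, was the called exception among hnRNPs, with 653, 648, 524 and 477 exon CPM in the nucleus, against 394, 415, 344 and 332 in the whole cell. Its log2 fold change was 0.63 ± 0.16 (edgeR adjusted p = 0.0031), or -1.24 with spike-in library sizes, and by gene-body counts it was 0.15 and not called. HNRNPH1 also overlaps another gene. HNRNPAB, another RNA-binding member, fell by 1.604 ± 0.14. Its ratio stood at 0.735 ± 0.0386 in the nucleus and 0.111 ± 0.0261 in the whole cell (SD, n = 4 each), while its intronic counts differed by -0.08 on the intronic scale. HNRNPA1L3, a retrotransposed relative of HNRNPA1, fell by 2.00 and may share reads with it. It had 0 intronic counts in all 8 libraries although an intron is annotated.

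Zinc finger genes, a family of DNA-binding regulators, were more often higher than lower on the TMM scale: 137 of 402 tested were higher and 45 lower, with a median of 0.31 (-1.56 with spike-in library sizes). Over all tested genes 25.9% were higher and 29% lower, with a median of 0.04. With no composition factor 243 were higher and 18 lower, beside 6879 and 2895 of 15940 over all genes. By gene-body counts 90 of 374 were higher and 51 lower, beside 3204 and 4303 of 17015 over all genes. ZNF506 rose by 1.72 ± 0.26 and ZNF660 by 1.51 ± 0.28, and ZNF593 fell by 2.30 ± 0.24. All 3 lie in or around other genes.

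**Figure D4:**
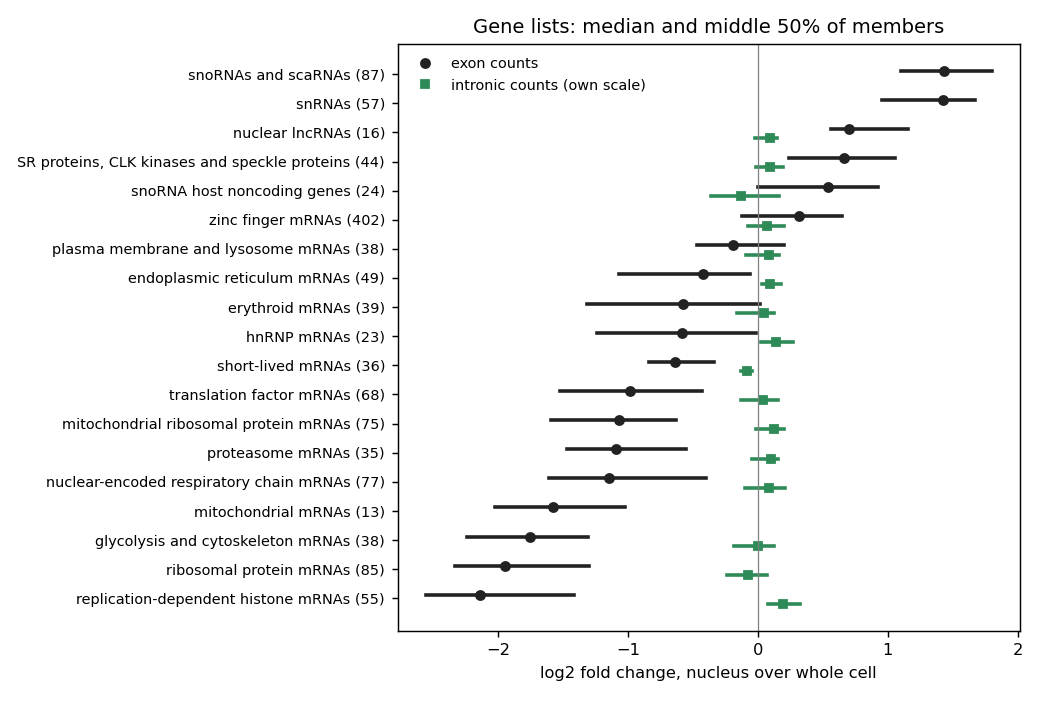
Median (symbol) and interquartile range (bar) of the log2 fold changes of the nucleus over the whole cell for 19 gene lists, with the number tested by exon counts in brackets; exon counts are black and intronic counts, on their own scale, green. The exon medians run from 1.43 for snoRNAs and scaRNAs to -2.14 for histones, while the intronic medians of the lists lie between -0.13 and 0.19. Under spike-in library sizes every exon median is below 0, and with no composition factor that of plasma membrane and lysosome mRNAs is above 0.

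Messages of the translation machinery were mostly lower in the nucleus. For this list and those below, the shares over all tested genes were 29% lower and 25.9% higher. Over protein-coding genes they were 35.0% and 19.2%. Of 85 tested mRNAs of cytosolic ribosomal proteins, 2 were higher in the nucleus and 78 lower, with a median of -1.94. By intronic counts 6 of 61 were lower and none higher (median -0.07), near the 6.69% and 0.328% over all tested genes, and the ratio rose in 60 of 61 and fell in 1, with a median of 3.02 against 1.22 over all genes, of which 76.8% rose.

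RPLP0, an acidic protein of the ribosomal stalk (chr12:120196686-120201235, minus strand, overlapping no other gene), had 126, 94.2, 119 and 102 exon CPM in nucleus libraries, against 660.1, 628, 699 and 801 in whole-cell libraries. Its libraries were far apart, with a log2 fold change of -2.66 ± 0.16 (edgeR adjusted p = 3.49e-11). It had 0.110 ± 0.0507 intronic counts per exon count in the nucleus, against 0.00435 ± 0.00122 in the whole cell (SD, n = 4 each), a log2 change of 4.64 ± 0.29 (edgeR adjusted p = 8.28e-14). The intronic level alone, 6.43 CPM in the nucleus and 3.79 CPM in the whole cell, did not pass the test (log2 fold change 0.78 ± 0.30).

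RPL35, of the large subunit, fell by 3.05 ± 0.20 and RPL8, also of the large subunit, by 2.90 ± 0.15. RPL36A went the other way, with 74.0, 76.3, 56.8 and 50.3 exon CPM in nucleus libraries, against 21.5, 27.7, 21.1 and 20.7 in whole-cell libraries (log2 fold change 1.50 ± 0.18, edgeR adjusted p = 6.09e-07). It overlaps another gene, has a near copy in RPL36AL and turned to -0.38 with spike-in library sizes. Processed pseudogenes of the same machinery, whose near-identical parents make their counts uncertain, were among the 8 largest falls of genes that overlap no other, average at least 10 CPM and have groups that do not overlap, with log2 fold changes of -3.95 for EEF1GP5, -3.87 for RPS3AP5, -3.66 for EEF1A1P5 and -3.34 for RPS3AP6.

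Ribosomal protein mRNAs are known to begin with a C followed by a run of pyrimidines, the mark of messages regulated together in translation. At the RefSeq start sites (GRCh38.p14), the first 5 transcript bases were a C and then 4 bases each C or T in 44 of 68 ribosomal protein genes with a start (64.7%), against 526 of all 9283 matched protein-coding genes (5.67%). The lines below show 15 bases on each side of the start, on the gene's strand, with the first 5 transcript bases in capitals, for 5 ribosomal protein genes with large falls and for 3 mRNAs higher in the nucleus.
RPL35: agccccgcctacttcCTCTTtccctcggag
RPL32: gggttacgacccatcAGCCCttgcgcgcca
RPS3A: cgactcccacttccgCCCTTttggctctct
RPL21: cggccccgcctctttCCTTTcggccggaac
RPL4: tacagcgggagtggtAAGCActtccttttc
NKTR: cggcctgggggaggaGACGGcgttccgtta
CCNL1: ccgagaacgctggttAGTCTtgtttcgggt
HNRNPH1: gccacgtacaacggcAGTCCcggttccccg
They lie at chr9:124861943-124861972, chr3:12841551-12841580, chr4:151099613-151099642, chr13:27251543-27251572, chr15:66504841-66504870, chr3:42600671-42600700, chr3:157160133-157160162 and chr5:179634770-179634799, in the order shown.

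The start was matched on the gene's strand only, and the search was chosen after values were seen. The ribosomal protein genes shown are examples and not simply the largest falls. RPL8 fell by 2.90, more than RPL32, and is not shown. Matches among the genes shown are therefore no measure of how often the largest falls match. RPL35, RPS3A and RPL21 match and fell by 3.05, 2.75 and 2.68, while RPL32 and RPL4 fell by 2.86 and 2.67 with no match at the first 5 bases. In both RPL32 and RPL4, the printed bases hold a C and then 4 bases each C or T shortly after the annotated start. The search did not count such later runs. Over protein-coding genes the median exon log2 fold change was -0.43 with such a start, -0.37 with it and no ribosomal protein gene, and -0.13 without it. Translation factor genes carried it in 13 of 53 (24.5%), splicing-factor genes in 2 of 38 (5.26%) and histone genes in 1 of 48 (2.08%). A match is a description of letters at an annotated start, not a tested cause.

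Translation factor mRNAs were lower in 49 of 68 cases and higher in 6, with a median of -0.98. This list was filled by gene name and also holds kinases and methyltransferases that act on the factors. EIF3I, a subunit of the initiation factor that loads the small ribosomal subunit, fell by 2.63 ± 0.14, and EIF5A, which helps the ribosome through stalled sequences, by 2.62 ± 0.16. EIF4A1, the initiation helicase, rose by 1.11 ± 0.24, overlaps other genes and turned to -0.76 with spike-in library sizes.

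Replication-dependent histone mRNAs, which lack a poly(A) tail and mostly lack introns, had the lowest list median, -2.14, with 49 of 55 lower and 2 higher. H4C3, a histone H4 gene on chr6:26103876-26104310, had 8.52, 7.56, 18.2 and 21.8 exon CPM in nucleus libraries, against 228, 179, 212 and 302 in whole-cell libraries. This was the largest fall among the named genes, with a log2 fold change of -4.04 ± 0.36 (edgeR adjusted p = 8.69e-09), and libraries that lead with 1 held less than those that lead with 2 within the nucleus. H2AC8 fell by 2.94 ± 0.18. H2BC6 rose by 1.27 ± 0.22, overlaps another gene and turned to -0.60 with spike-in library sizes. Histone genes are near-identical copies, so counts can pass between them.

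Cytosolic enzymes, chaperones and cytoskeleton mRNAs were lower in 33 of 38 cases and higher in none, with a median of -1.75. GAPDH, the glycolytic dehydrogenase (chr12:6533927-6538374), had 139.9, 144, 129 and 134 exon CPM in nucleus libraries, against 869, 877, 909.7 and 1126 in whole-cell libraries. Its log2 fold change was -2.79 ± 0.13 (edgeR adjusted p = 2.08e-12), with replicate 4 the highest whole-cell library. ACTB, cytoplasmic beta-actin, averaged 290.2 ± 9.62 exon CPM in the nucleus and 1374 ± 47.0 in the whole cell (SD, n = 4 each), a fall of 2.24 on the log2 scale. TMSB10, an actin-binding peptide, fell by 2.95 ± 0.35 and TUBA1A, an alpha-tubulin with close copies, fell by 2.88 ± 0.44.

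Messages of proteins made for mitochondria were also mostly lower. Nuclear-encoded subunits of the respiratory chain were lower in 57 of 77 cases and higher in 3 (median -1.15), mitochondrial ribosomal proteins lower in 58 of 75 and higher in 6 (median -1.07). COX8A, a cytochrome oxidase subunit, fell by 2.66 and NDUFB7, of complex I, by 2.59, while NDUFV2, also of complex I, rose by 1.55 ± 0.17 in an annotated overlap (-0.30 with spike-in library sizes). MRPL41 fell by 2.24 and MRPL3 by 2.00 (-0.30 and not called by gene-body counts). MRPS14 rose by 0.83 in an annotated overlap (-1.04 with spike-in library sizes).

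The transcripts made inside mitochondria were lower in 12 of 13 cases, with a median of -1.58. MT-CO1, the catalytic subunit of cytochrome oxidase, had 3420, 1670, 2308 and 2240 exon CPM in nucleus replicates 1 to 4, against 7627, 8397, 7799 and 8065 in whole-cell replicates 1 to 4. Nucleus replicate 1 was the highest of its group and below every whole-cell library (log2 fold change -1.73 ± 0.17, edgeR adjusted p = 4.24e-08). MT-ATP8, an ATP synthase subunit, fell by 2.39 and MT-CO2, the copper-binding oxidase subunit, by 2.29. MT-TV, the mitochondrial valine tRNA that lies between the rRNA genes, fell by 3.49 ± 0.71.

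Proteasome subunit mRNAs were lower in 29 of 35 cases and higher in 4 (median -1.10). PSMB6, of the catalytic core, fell by 2.67 and PSMD10, an assembly chaperone, by 2.24, while PSMD9, another assembly chaperone, rose by 1.16 ± 0.22 in an annotated overlap and turned to -0.71 with spike-in library sizes. HSPB1, a small heat shock protein whose gene overlaps no other (chr7:76302544-76304295), had 3.59, 4.81, 2.18 and 3.11 exon CPM in nucleus libraries, against 45.6, 34.1, 20.2 and 37.1 in whole-cell libraries, a log2 fold change of -3.31 ± 0.28 (edgeR adjusted p = 3.76e-09).

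Messages translated at membranes had medians nearer 0. Of 49 endoplasmic reticulum mRNAs, 29 were lower and none higher on the TMM scale, with a median of -0.42, and with no composition factor 17 were lower and 11 higher (median -0.05). Of 38 plasma membrane and lysosome mRNAs, 11 were lower and 2 higher (median -0.19), a share lower that is near the 29% over all tested genes. Over protein-coding genes 35.0% were lower and 19.2% higher, with a median of -0.15. With DESeq2's factors 6 were lower and 4 higher, and with no composition factor 4 were lower and 11 higher (median 0.18). The ratio rose in 39 of 40 and 31 of 33 of their tested genes, with medians of 1.72 and 1.40, against 76.8% and a median of 1.22 over all genes. Over protein-coding genes it rose in 85.6%, with a median of 1.36.

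HSPA5, the lumenal chaperone BiP (chr9:125234853-125241330), had 374, 366, 540.1 and 486 exon CPM in nucleus libraries, against 418, 362, 435 and 451 in whole-cell libraries. The groups overlap and its log2 fold change of 0.08 ± 0.16 was not called (edgeR adjusted p = 0.668). HSPA5 was called with no composition factor (0.47), by gene-body counts (-0.53) and with spike-in library sizes (-1.78), so its direction depends on the setting. TFRC, the transferrin receptor, had 1055, 959, 867 and 781 exon CPM in nucleus libraries, against 768, 940.4, 630.03 and 519 in whole-cell libraries, again overlapping (0.36 ± 0.22, edgeR adjusted p = 0.180). Among other fits, TFRC was called with a replicate block (0.39), with no composition factor (0.73) and with spike-in library sizes (-1.50). OST4 and DAD1, both small subunits of oligosaccharyltransferase, fell by 2.18 and 2.56, and DAD1 was not called by gene-body counts (-0.24). CD63 and CD81, both tetraspanins, fell by 1.27 and 1.14. CD46, a complement regulator, rose by 0.95 ± 0.11 in an annotated overlap (-0.92 with spike-in library sizes).

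Erythroid mRNAs were lower in 25 of 39 cases and higher in 4 (median -0.57), beside 29% and 25.9% over all tested genes. With no composition factor they were lower in 14 and higher in 8, beside 2895 and 6879 of 15940 over all genes. HBG2, a fetal globin, had 307, 226, 314 and 296 exon CPM in nucleus libraries, against 2071, 1943, 1635 and 1939.9 in whole-cell libraries, a log2 fold change of -2.73 ± 0.19 (edgeR adjusted p = 3.12e-10). Its ratio was 0.518 ± 0.192 in the nucleus and 0.0313 ± 0.0053 in the whole cell (SD, n = 4 each), and its intronic level did not differ detectably (0.05 ± 0.15), though its annotated span overlaps other genes. HBG1, a near-identical neighbour, fell by 0.84 but turned to 0.53 by gene-body counts, and the split of reads between the 2 is uncertain. HBE1, embryonic globin, fell by 2.45 and HBA2, alpha-globin with a close copy, by 3.86. FTL, the ferritin light chain, fell by 3.09 ± 0.13. GATA1, the erythroid transcription factor on chrX:48786554-48794311, averaged 30.05 ± 2.37 exon CPM in the nucleus and 78.9 ± 8.60 in the whole cell (SD, n = 4 each), with intronic counts that were not called (-0.11 ± 0.20).

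Short-lived mRNAs, such as those of immediate early genes, were lower in 14 of 36 cases and higher in none, with a median of -0.64, beside 29% lower over all tested genes. Over protein-coding genes 35.0% were lower and 19.2% higher, with a median of -0.15, so the share lower in this list was near that level. With DESeq2's factors 8 were lower, with no composition factor 6 were lower and 2 higher, and by gene-body counts 24 of 35 were lower. JUND, an AP-1 subunit, fell by 1.87 ± 0.16 and CCND2, cyclin D2, by 1.33 ± 0.16.

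Among genes that overlap no other, average at least 10 CPM and have groups that do not overlap, the 8 largest exon rises belonged mostly to noncoding or low-level genes. ENSG00000274422, a long intergenic RNA on chr22:22283928-22287220, had 166, 224, 96.3 and 114 exon CPM in nucleus libraries, against 54.3, 44.5, 43.1 and 33.0 in whole-cell libraries, a log2 fold change of 1.79 ± 0.29 (edgeR adjusted p = 3.59e-05). OR52A5, an olfactory receptor gene near the beta-globin locus, changed by 1.78 ± 0.47, GPM6B, a membrane proteolipid, by 1.68 ± 0.30, and PRSS12, a secreted protease, by 1.66 ± 0.44. GPR89B, a Golgi membrane protein with a near-identical copy in GPR89A, changed by 1.51 ± 0.22, AC011043.1 by 1.72 ± 0.34, and the pseudogenes ENSG00000254067 and ENSG00000278931 by 1.65 ± 0.29 and 1.59 ± 0.22. All 8 turned to values between -0.37 and -0.07 with spike-in library sizes, and OR52A5 and PRSS12 were not called by gene-body counts (1.16 and 1.01). OR52A5 had 0 intronic counts in all 8 libraries although an intron is annotated. How its reads were assigned was not tested.

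Few genes were called higher by intronic counts, and the named ones changed little. SMC3, a cohesin subunit (chr10:110567691-110604636), had 62.4, 62.1, 68.1 and 59.1 intronic CPM in nucleus libraries, against 37.6, 51.2, 53.2 and 33.6 in whole-cell libraries, a log2 fold change of 0.50 ± 0.14 (edgeR adjusted p = 0.0316). GSTO1, a glutathione transferase, changed by 0.43 and H2AC6, a histone H2A gene, by 0.32, while their exon counts fell by 1.83 and 1.22. These 3 calls were lost under several alternatives, among them leaving out single libraries (5 of the 8 for SMC3, 6 for GSTO1 and all 8 for H2AC6), and they turned to -0.16, -0.22 and -0.33 with spike-in library sizes.

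The intronic falls were larger. PPM1L, a membrane phosphatase with a span of chr3:160755602-161078907, had 34.95, 24.0, 21.1 and 18.5 intronic CPM in nucleus libraries, against 268, 69.6, 72.1 and 125 in whole-cell libraries, a log2 fold change of -2.40 ± 0.52 (edgeR adjusted p = 0.00514). SF3B4, a spliceosome subunit, fell by 1.44, SNX12, a sorting nexin, by 1.19 and TNN, a matrix tenascin, by 1.07. PPM1L had only 0 to 4 exon counts per library and TNN 0 to 2, and neither was tested by exon counts. Whether their intronic reads come from these genes' own transcripts was not tested. INAFM2 also met the naming rule, at -2.06, but it has no annotated intron in GENCODE 29, so its difference of gene-body and exon counts is not an intronic level. These falls are relative to the intronic median. With the library sizes and factors of the exon counts SNX12 and TNN turned to 0.01 and 0.17, and SF3B4 became -0.25 and was no longer called.

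Among genes that overlap no other and average at least 10 exon and 10 intronic CPM, the 6 with the largest rises of the intron to exon ratio had exon counts that fell and intronic counts that were not called. YBX1, an RNA-binding cold shock protein on chr1:42682427-42702349, had 4.54, 4.40, 5.30 and 3.81 intronic counts per exon count in nucleus libraries, against 0.197, 0.392, 0.315 and 0.177 in whole-cell libraries, a log2 change of 4.12 ± 0.21 (edgeR adjusted p = 1.83e-15). Its exon level fell by 2.62 ± 0.27 and its intronic level differed by 0.27 ± 0.18. CHP1, a calcium-binding partner of sodium-proton exchangers, changed in ratio by 3.93, DAD1 by 3.83, MZT1, of the gamma-tubulin ring complex, by 3.78, and H2BC4, a histone H2B gene, and GLO1, which detoxifies methylglyoxal, by 3.77 each. Their exon levels fell by 2.32 to 2.56. No gene that overlaps no other met the naming rule for a fall of the ratio.

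Across protein-coding genes the exon fold change varied with the structure of the gene. Genes with a single annotated exon had a median of -0.78 (230 genes), those with 2 to 4 exons -0.48, with 5 to 9 exons -0.34, with 10 to 19 exons -0.06, with 20 to 39 exons 0.16 and with 40 or more exons 0.38 (243 genes). By quintile of exonic length the median was -0.73, -0.33, -0.16, -0.02 and 0.19 from the shortest to the longest. Spearman correlations over 11297 genes were 0.27 with exon number, 0.34 with exonic length and 0.23 with span. With spike-in library sizes the medians by exon number ran from -2.66 to -1.49, and with no composition factor from -0.41 to 0.75, in the same order. Genes share libraries and depth, so these are descriptions, with no p.

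Intronic fold changes varied little with exon number (medians between 0.00 and 0.06) but did with base composition. By quintile of GC content of the longest transcript the intronic median was 0.16, 0.12, 0.06, -0.02 and -0.16 from the most AT-rich to the most GC-rich, and the Spearman correlation was -0.49 over 9719 genes. For exon counts the correlation with GC was -0.10. The ratio, which compares counts within a library, had a correlation of -0.08 with GC and -0.29 with exonic length. GC content was not used as a covariate, and its part in the intronic calls was not tested.

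**Figure D5:**
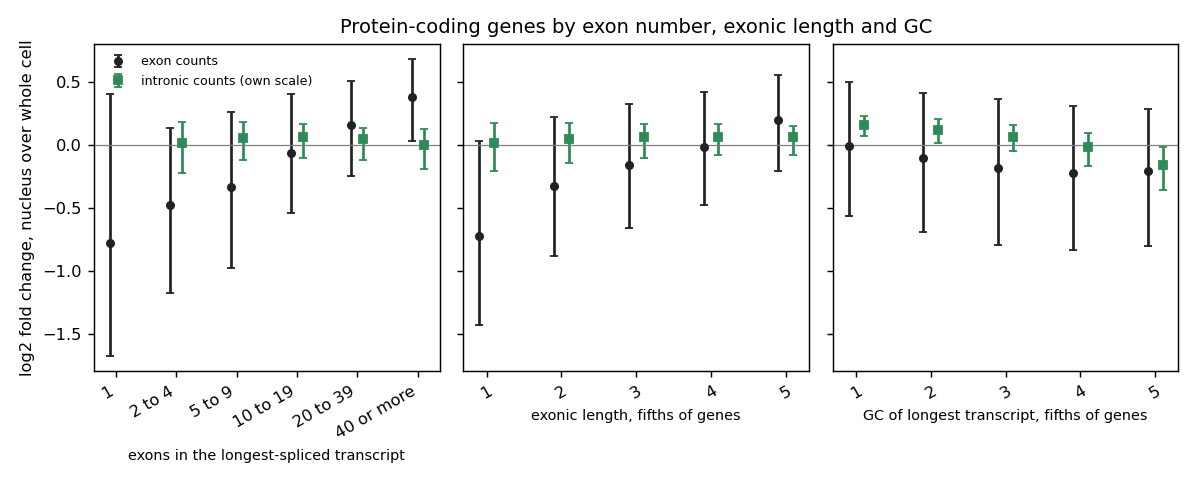
Median and interquartile range of the log2 fold change of the nucleus over the whole cell for protein-coding genes in bins of exon number, exonic length and GC content, for exon counts (black) and intronic counts on their own scale (green). Exon medians climb from -0.78 to 0.38 with exon number and from -0.73 to 0.19 with exonic length, with all of them below 0 under spike-in library sizes, while intronic medians move mainly with GC, from 0.16 to -0.16.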

How the data were processed

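RNA was sequenced from nuclei and whole cells of K562. Extraction used Trizol LS and synthetic yeast RNA was added, per the labels' protocols, before rRNA depletion and a stranded total RNA kit. The authors deposited whole-number counts per gene over exons and over gene bodies, and featureCounts 1.6.2, STAR 2.7.0a, cutadapt 2.5 and the hg38 build are named in the submitters' processing notes. The annotation release and the strand setting of the counting were not given in the sources used here. These counts are not normalized. Of 58051 identifiers, 57447 were found in GENCODE 29 (GRCh38), which supplied coordinates, exon numbers and overlaps. Intronic counts are gene-body minus exon counts, and negative differences set to 0 equalled 2.96 to 3.20% of exon counts in nucleus libraries and 2.16 to 2.23% in whole-cell libraries.

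Exon and intronic counts were each fitted with edgeR 4.0.16 (R 4.3.3; glmQLFit and glmQLFTest, TMM factors, filterByExpr) over all 16 rRNA-depleted libraries with a term per fraction, and the contrast was nucleus minus whole cell. Calls are at a Benjamini-Hochberg adjusted p under 0.05 over all tested genes. The ratio was fitted over 8 libraries with a term per library, so scaling cancels. The models were tested on simulated data. CPM are counts divided by the library's total over tested genes times its TMM factor, times 1000000. Shares were compared with exact permutation tests. Total counts limit the precision of low genes. Alternatives were other scalings, filters and tools (DESeq2 1.42.0, limma 3.58.1), gene-body counts, leaving out libraries, and values within each leading digit of the library names.

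Same-numbered libraries deviated together: the correlations of their deviations from the group means were 0.14, 0.263, 0.204 and 0.267 for exon counts and 0.274, 0.515, 0.388 and 0.482 for intronic counts. Libraries with the other number of the same leading digit correlated about as much, and those with the other digit negatively.

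Named genes are those with the largest called changes that overlap no other gene, with groups that do not overlap and a mean of at least 10 CPM (8 a direction by exon counts, 5 by intronic counts, 6 by ratio); in each list, the 2 largest called changes in its main direction and the 1 largest the other way at 5 CPM or more; and 10 landmark genes. A gene that this rule names is not reported here. The comparison, lists and rules were chosen with earlier results of these data known. A list of genes with minor-class introns, defined by splice-site sequence, was not used here. Start-site sequences are from RefSeq (GRCh38.p14), matched for 9283 of 11297 tested protein-coding genes.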

Additional observations from a re-analysis of the deposited data

Results flagged for a closer look

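Among 220 sets of 4 replicate values of named genes and of library shares, 11 had 1 library that stood apart from the other 3 by Dixon's test. Chance alone gives about 1 set in 20, which is the share seen here. Nucleus replicate 1 stood apart in 4 of them. It held 545.1 exon CPM of MT-CO2, against 251.2 to 284.8 in the other nucleus libraries, beside its higher mitochondrial share. It also held 54.24 exon CPM of EPCAM (others 33.99 to 35.8), 17.93 of PSMD9 (others 14.96 to 15.46) and 4.483 of LYZ (others 7.264 to 7.615). Nucleus replicate 4 had 7.923 intronic counts per exon count for CHP1, against 6.2 to 6.419 in the other nucleus libraries.

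Whole-cell replicate 4 held 1126 exon CPM of GAPDH (others 868.8 to 909.7), 6.824 of LINC-PINT (others 4.898 to 5.168) and 2.047 of ZNF660 (others 4.144 to 4.385). Whole-cell replicate 2 held 87.14 exon CPM of RPS3AP6 (others 64.15 to 64.8) and 27.72 of RPL36A (others 20.7 to 21.47). Whole-cell replicate 1 held 22.23 exon CPM of SNX12 (others 16.15 to 17.15).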

How the results depend on the processing

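Of 1982 pairs of a named gene value and an alternative, 1874 kept their call or lack of one (5 of them, of SMC3 and HSPA5, uncalled with a changed sign), 63 lost and 8 gained a call, and 37 turned to the other sign. Calls by exon counts numbered 6879 higher and 2895 lower with no composition factor, and 0 and 13771 with spike-in library sizes. Higher intronic calls numbered 71 without the filter, 178 with the replicate block, 214 and 73 within leading digits 1 and 2, 16 without genes of negative difference and 11112 with the factors of the exon counts. Lower ones numbered 4362 with spike-in library sizes and 227 with the exon factors. Among genes that overlap no other edgeR's intronic calls were 0 and 19 (50 higher at an unadjusted p under 0.05), with 3019 genes tested, and the ratio calls 2325 and 3. Without single libraries, exon calls ranged from 3423 to 3839 higher and 4328 to 4583 lower, intronic calls from 28 to 49 and 659 to 881, and ratio calls from 7805 to 8013 and 110 to 126. The block moved no other count by over 1.5 times.

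Paired by replicate number, the exact test of the shares cannot go below 0.125, which 8 of 9 reached: differences of 22.4 points (intronic), 24.8 (density), 7.75 (lncRNA), 5.58 (MALAT1), 0.0531 (snRNA), 0.1495 (snoRNA), -1.88 (mitochondrial mRNA) and -10.6 (mitochondrial rRNA). Within leading digits 1 and 2 the differences were 8.48 and 7.02 points for lncRNA, 6.35 and 4.81 for MALAT1, 0.0443 and 0.0619 for snRNA and 0.105 and 0.194 for snoRNA. The protein-coding share differed by -8.82 points without mitochondrial and rRNA genes and by 5.42 by gene-body counts, both with an exact permutation p of 0.0286, and the snRNA share by 0.00299 by gene-body counts. Without single libraries the share differences ranged from 21.04 to 23.5, 23.9 to 25.8, 7.38 to 7.996, 5.20 to 5.87, 0.0477 to 0.0564, 0.129 to 0.169, -2.06 to -1.72 and -11.6 to -10.01 in the order above, and from 2.61 to 4.40 for protein-coding.

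Spike-in library sizes, under which the median exon log2 fold change was -1.83, turned 31 named values: ENSG00000274422 -0.10, OR52A5 -0.0702, AC011043.1 -0.16, GPM6B -0.18, PRSS12 -0.21, ENSG00000254067 -0.20, ENSG00000278931 -0.30, GPR89B -0.37, MALAT1 -0.45, LINC-PINT -0.53, GAS5 -0.38, SNHG12 -0.73, RNU6-786P -0.12, CCNL1 -0.50, NKTR -0.58, HNRNPH1 -1.24, ZNF506 -0.15, ZNF660 -0.34, RPL36A -0.38, EIF4A1 -0.76, H2BC6 -0.60, NDUFV2 -0.30, MRPS14 -1.04, PSMD9 -0.71, CD46 -0.92, NEAT1 -0.79, HSPA5 -1.78 and TFRC -1.50 by exon counts, and SMC3 -0.16, GSTO1 -0.22 and H2AC6 -0.33 by intronic counts. Gene-body counts turned the exon values of GSTO1 (-1.83 to 0.19), H2AC6 (-1.22 to 0.10), HBG1 (-0.84 to 0.53) and HSPA5 (0.08 to -0.53). The exon factors turned the intronic values of SNX12 (0.00959) and TNN (0.17). The cause of these changes was not tested. Depth limits the low genes most: of 1909 snRNA genes only 57 could be tested.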
